A study of Mus musculus with 24 samples.

Results

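The 10 genes described here, of 35742 in the tables, belong to the p53 pathway. They are Trp53, which encodes the transcription factor p53 itself, and 9 of its known targets in cell-cycle arrest and feedback, Cdkn1a, Mdm2, Ccng1, Zmat3, Eda2r, Plk2, Aen, Ckap2 and Trp53inp1. Each was found by its gene symbol, with 1 row in every table. Total RNA had been sequenced from a V6.5 mouse embryonic stem (mES) cell line in which BRD2, a bromodomain protein of the BET family that binds acetylated chromatin, bears a degron, so that adding an auxin can have the protein degraded. All 8 groups had received doxycycline (Dox, 1 µg/ml, 18 h), so the controls are Dox-treated degron cells, not untagged cells. In 4 groups IAA (500 µM), the auxin indole-3-acetic acid, was present for 24 h as well. Cells were mES cells, kept with leukaemia inhibitory factor (LIF), a GSK3 inhibitor and a MEK inhibitor, or embryoid bodies (EB), aggregates that differentiate without LIF, on day 2, 3 or 4 (EBd2, EBd3 and EBd4). Each stage had 3 Dox and 3 IAA libraries, 24 in all. Separate cultures behind the 3 libraries of a group, the number of clones behind the line and the point of EB culture at which IAA was added are not given in the labels, and p-values measure only the spread between these samples.

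p53 is kept low by Mdm2, a ubiquitin ligase that marks it for destruction. When stress blocks that ligase, p53 accumulates and switches on arrest genes such as Cdkn1a, death genes, and Mdm2 itself, which closes a negative feedback loop. Mouse embryonic stem cells are known for high p53 levels, and p53 is known to lower Nanog in them after DNA damage. RNA levels of Trp53 say little about p53 activity, which is set mainly at the protein.

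Promoter sequence was looked at first, since the members moved together over the stages. RefSeq promoter windows on GRCm38.p6 (250 bases before to 50 after a start site, 300 in all) were found for 8 of the 10 genes, in 10 windows. Windows were searched on both strands for the p53 half-site and for a p53 tandem site. The tandem site is a pair of half-sites lying next to each other, with at most 1 base between them, at most 2 mismatches in all and the central C and G of each kept, so its matches can overlap those of the half-site. A half-site lay in a window of 6 of the 8 genes (Trp53, Cdkn1a, Mdm2, Ccng1, Aen and Ckap2) and in 8.36% of all 32851 windows. A tandem site lay in a window of 3 genes, Cdkn1a, Ccng1 and Ckap2, and in 0.682% of all windows. Such matches describe the letters alone. A gene was counted if any of its windows matched, and Aen and Cdkn1a had more than 1 window. The shares of all windows are per window, so the 2 measures are not alike. The 250 bases before the start are shown for those 3 genes with the tandem site in capitals, and for Mdm2, the feedback gene, with its half-site in capitals.
Cdkn1a, chr17:29090729-29090978, plus strand: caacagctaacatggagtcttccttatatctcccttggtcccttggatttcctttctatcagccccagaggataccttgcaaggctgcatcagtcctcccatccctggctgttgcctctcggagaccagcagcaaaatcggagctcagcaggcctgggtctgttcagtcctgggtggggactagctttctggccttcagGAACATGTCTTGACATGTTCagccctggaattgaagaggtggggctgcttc
Ccng1, chr11:40755287-40755536, minus strand: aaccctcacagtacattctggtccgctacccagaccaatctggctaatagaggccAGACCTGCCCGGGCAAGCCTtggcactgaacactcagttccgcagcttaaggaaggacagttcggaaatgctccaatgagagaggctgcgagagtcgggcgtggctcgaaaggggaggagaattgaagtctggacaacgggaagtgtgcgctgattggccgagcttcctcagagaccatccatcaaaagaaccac
Ckap2, chr8:22185820-22186069, minus strand: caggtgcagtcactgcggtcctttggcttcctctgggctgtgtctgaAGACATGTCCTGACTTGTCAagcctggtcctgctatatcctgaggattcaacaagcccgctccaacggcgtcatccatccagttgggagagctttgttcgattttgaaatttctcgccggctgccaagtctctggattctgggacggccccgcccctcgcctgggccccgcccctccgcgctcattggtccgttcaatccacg
Mdm2, chr10:117710759-117711008, minus strand: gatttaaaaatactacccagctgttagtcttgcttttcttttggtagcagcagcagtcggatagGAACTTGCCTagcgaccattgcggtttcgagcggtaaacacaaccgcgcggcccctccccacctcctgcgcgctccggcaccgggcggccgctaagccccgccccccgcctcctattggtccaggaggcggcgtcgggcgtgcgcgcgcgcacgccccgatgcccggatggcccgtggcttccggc
The tandem site of Cdkn1a began 51 bases before the upstream of its 2 annotated starts and had 1 mismatch. That of Ccng1 began 195 bases before its start with 1 mismatch, and that of Ckap2 203 bases before with 2. No window of Plk2 or Eda2r held either motif, and neither did the window of the downstream Cdkn1a start. The share of G and C ran from 50.3% to 66.3% over the members' windows against a median of 52.7% over all windows. CpG pairs ran from 2 (upstream Cdkn1a start) to 35 (Mdm2) against a median of 7.

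Levels below are size-factor-normalised read counts of single libraries, in the order replicate 1, 2 and 3, or their mean ± SD (n = 3). Changes are log2 fold changes ± SE from limma, and "rose" and "fell" mean an adjusted p below 0.05 over all genes tested. A library held 7819522 to 15732767 reads, as recovered from the values. In EBd4 every IAA library (9007143 to 10598075) was deeper than every Dox library (7941180 to 8120480), so depth and IAA go together there. Mitochondrial reads made up 0.831% to 1.29% of a library. In EBd2 they were higher in every IAA library (0.959% to 1.03%) than in every Dox library (0.831% to 0.892%), and in EBd3 also (1.25% to 1.26% against 1.14% to 1.19%). Stages differed in these measures too. Every EBd2 Dox library (11005217 to 13992700 reads) was deeper than every EBd3 Dox library (8353587 to 9371177). The mitochondrial share of EBd2 Dox lay below those of mES Dox (1.05% to 1.07%) and EBd3 Dox. The part of these differences in the steps between stages was not tested. The targeted gene's RNA does not show its protein, and Brd2 RNA was higher with IAA in each stage (log2 0.87 ± 0.02, 0.65 ± 0.04, 0.38 ± 0.04 and 0.48 ± 0.06). All 8 pluripotency markers were detected in each group, with a summed level of 53709 to 55452 in mES Dox and 11965 to 12852 in EBd2 Dox. Formative epiblast markers went the other way, with sums of 1364 to 1530.5 in mES Dox and of 24599.8 to 26381 in EBd2 Dox. Fibroblast markers were at most 50.2 in sum in mES, and 4 of the 7 (Dcn, Lum, Postn and Twist2) were at 0 in all 6 mES libraries. The stages also differ in medium, and the part of the medium and that of differentiation cannot be told apart.

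EBd2 Dox 3 differed more from Dox 1 and Dox 2 (chi-square per degree of freedom 4.09 and 3.44) than these from each other (1.27). It held the lowest value of its group for 10 of the 10 members, and so did EBd2 IAA 3 in its own group. These are the deepest libraries of their groups, with 13992700 and 15732767 reads. In EBd3, Dox 1 held the lowest value for 10 members, IAA 2 the lowest for 9, and Dox 3 and IAA 3 each the highest for 9. In EBd4 IAA, chi-square per degree of freedom was 4.9 for libraries 1 and 3, 3.4 for 1 and 2, and 1.92 for 2 and 3. In EBd3 IAA it was 3.1 for libraries 2 and 3. The part of these libraries in the results was not tested beyond leaving each out. In bulk RNA, fewer cells of a type and less RNA per cell cannot be told apart. The labels mention no spike-in, so all levels are relative to the other RNAs of the library.

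Without IAA, the members had a peak on EB day 2. All 10 rose from mES to EBd2, where 35.0% of all genes tested rose and 29.1% fell, and the median member changed by 2.14 on the log2 scale against 0.07 for all genes. All 10 then fell from EBd2 to EBd3 (22.0% of all genes rose and 24.4% fell, with medians of -1.67 and -0.04), and 9 fell again from EBd3 to EBd4 (17.6% of all genes fell, with medians of -0.57 and -0.01). Trp53, the exception, rose in the last step, where 16.1% of all genes rose. In Dox as in IAA libraries, the 3 EBd2 values of each of the 10 members lay above all values of the other stages, which held for 16.0% of all genes in Dox and 14.1% in IAA.

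Trp53 (ENSMUSG00000059552, chromosome 11, 69580359 to 69591873, plus strand, on mm10) moved least of the 10 in the first step. It read 2822, 2924 and 2948 in the mES Dox libraries and 3929.9, 3817 and 3707 in EBd2, a change of 0.40 ± 0.04, adjusted p = 2.44e-08. In EBd3 it read 2272, 2372 and 2513 (-0.68 ± 0.04) and in EBd4 2829, 2749.9 and 2527 (0.18 ± 0.04, adjusted p = 0.0026). Its EBd4 and mES libraries overlapped, while EBd2 stood above and EBd3 below the others.

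Plk2, a polo-like kinase of centriole duplication (ENSMUSG00000021701, chromosome 13, 110395046 to 110400844, plus strand), moved most. It read 36.2, 35.6 and 41.8 in mES Dox and 3115, 2979 and 2298 in EBd2, a 73.8-fold ratio of the means and a log2 fold change of 6.16 ± 0.16, adjusted p = 2.9e-20, rank 38 from the top among 22141 genes. In EBd3 it read 204, 352 and 409, so that the fall from EBd2 (-3.16 ± 0.16) ranked 29 from the bottom. By EBd4 it was back to 66.2, 61.1 and 59.2, still above each mES value.

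Cdkn1a encodes p21, the inhibitor of cyclin-dependent kinases through which p53 stops the cell cycle (ENSMUSG00000023067, chromosome 17, 29090976 to 29100727, plus strand). It read 1052, 1029 and 1052 in mES Dox and 3799, 3649 and 2815 in EBd2 (1.70 ± 0.13, adjusted p = 2.28e-11). It then read 359, 541 and 599 in EBd3 (-2.80 ± 0.13) and 119.7, 106 and 138 in EBd4 (-2.01 ± 0.13). Cdkn1a ended below its mES libraries, with its stages in the order EBd2, mES, EBd3, EBd4 and no overlap between neighbours. A gene annotated on the opposite strand, AC167363.2, overlaps 273 exonic bases of Cdkn1a, with values of at most 53.7 in any library. Without a stated strand setting, its reads and those of Cdkn1a cannot be told apart over these bases.

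The feedback genes rose and fell alike. Mdm2 (ENSMUSG00000020184, chromosome 10, 117688875 to 117710758, minus strand) read 579.8, 608 and 587 in mES Dox and 3287, 3192 and 2632 in EBd2 (2.35 ± 0.07, adjusted p = 2.77e-19). On day 3 it read 921, 942 and 1056 and on day 4 725, 645 and 642. Ccng1, which encodes cyclin G1, a partner of the phosphatase PP2A that acts on Mdm2 (ENSMUSG00000020326, chromosome 11, 40748552 to 40755311, minus strand), read 1019, 1046 and 1037 in mES Dox and 11676, 11794 and 10642 in EBd2 (3.46 ± 0.09, adjusted p = 1.05e-20). On day 3 it was down to 2603, 3269.9 and 3829, and on day 4 to 1354, 1105 and 1273. Both ended above their mES libraries, Mdm2 at 671 ± 46.7 against 592 ± 14.7 and Ccng1 at 1244 ± 127 against 1034 ± 13.6. Trp53inp1, a nuclear protein that aids p53 and takes part in autophagy (ENSMUSG00000028211, chromosome 4, 11156431 to 11174379, plus strand), read 775, 725 and 743 in mES Dox and 8173, 8247 and 6888 in EBd2 (3.37 ± 0.06, adjusted p = 8.11e-23), and was at 1679 ± 84.5 in EBd4.

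The other 4 targets had the same course with smaller or larger steps. Eda2r, a receptor of the tumour necrosis factor family (ENSMUSG00000034457, chromosome X, 97333840 to 97377216, minus strand), went from 136 ± 17.3 in mES Dox to 1431 ± 153 in EBd2 (3.39 ± 0.10, adjusted p = 4.1e-19), then to 375 ± 56.3 and 144 ± 6.40. Its EBd4 and mES libraries overlapped. Zmat3, a zinc finger protein that binds RNA (ENSMUSG00000027663, chromosome 3, 32334792 to 32366014, minus strand), went from 767 ± 18.2 to 2909 ± 233 (1.92 ± 0.07, adjusted p = 4.42e-18), and to 880.2 ± 17.8 in EBd4. Aen, a nuclease that enhances apoptosis (ENSMUSG00000030609, chromosome 7, 78895854 to 78911209, plus strand), went from 636 ± 46.9 to 2297 ± 111 (1.85 ± 0.06, adjusted p = 4.21e-18) and ended at 736 ± 24.8. Ckap2, a microtubule-associated protein of the mitotic spindle (ENSMUSG00000037725, chromosome 8, 22168160 to 22185819, minus strand), made the smallest rise of the 9 targets, from 1247 ± 39.8 to 3150.0 ± 145 (1.34 ± 0.05, adjusted p = 2.1e-17), and ended below its mES libraries at 1098 ± 37.8.

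**Figure D1:**
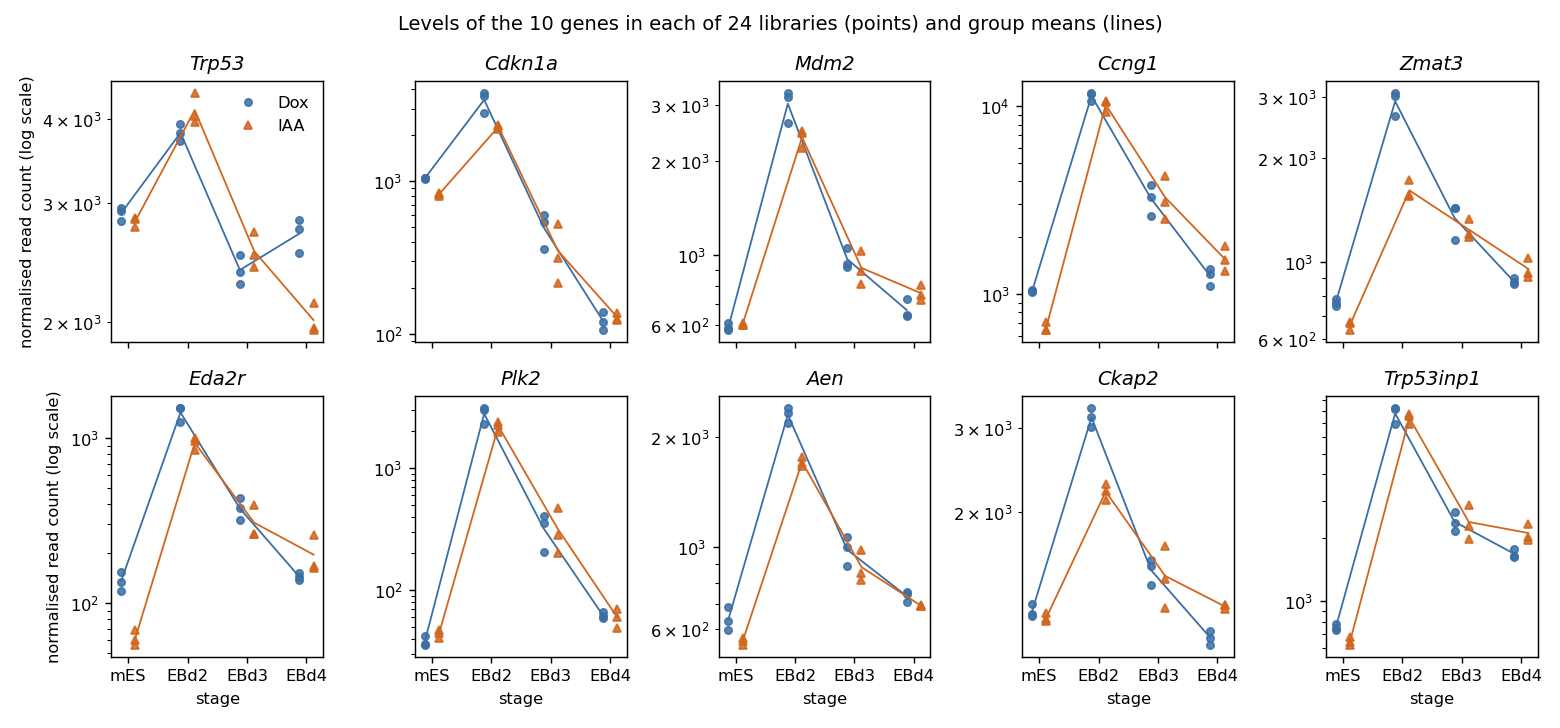
Each panel plots 1 gene: normalised read counts on a log scale against stage, with circles for the 3 Dox and triangles for the 3 IAA libraries of a group and lines through the group means. All 10 genes are highest in EBd2 in both treatments. Cdkn1a has the lowest of its own stage means in EBd4 in both treatments, and Trp53 is the one gene that fell with IAA in EBd4.

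**Figure D2:**
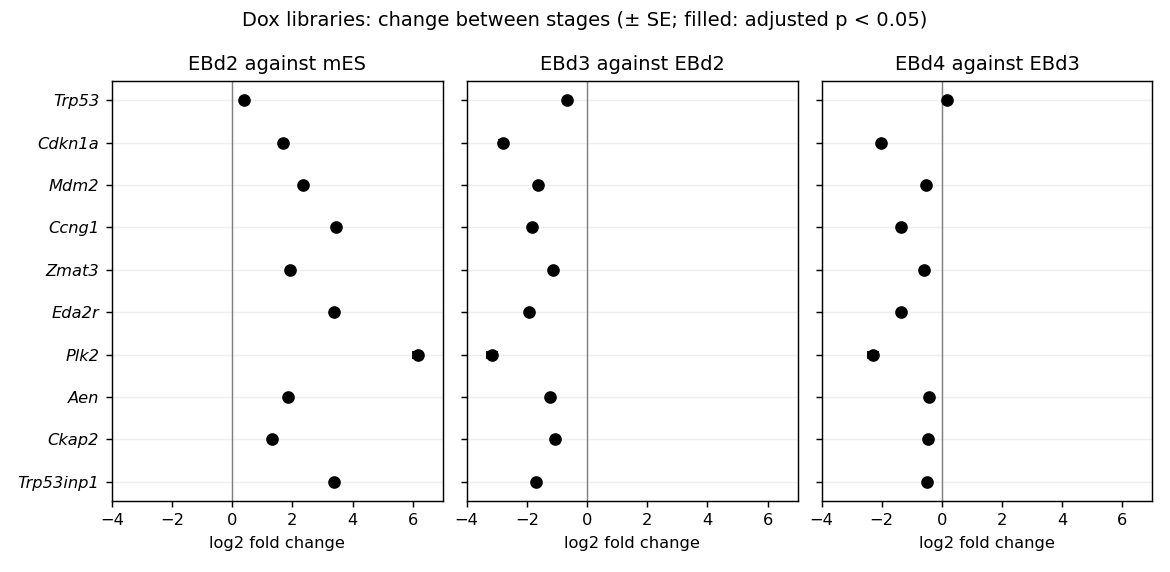
Log2 fold changes (points) with SE (bars) of the 10 genes between successive stages in the 12 Dox libraries; filled points have an adjusted p below 0.05. All 10 points are above 0 in the first step and below 0 in the second, and Plk2 is the farthest out in the first, at 6.16.

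Per kilobase of exonic sequence, which allows levels of different genes to be compared, the order changed with the stage. In mES Dox, Trp53 was highest, at 716 ± 16.5 normalised reads per kilobase, and Plk2 lowest, at 8.44 ± 0.760. In EBd2 Dox, Ccng1 led with 3238 ± 180.4, followed by Trp53inp1 (1199.9 ± 118), while Trp53 stood at 944 ± 27.6 and Plk2 at 623 ± 97.5. In EBd4 Dox, Trp53 was again the highest (668 ± 38.8). Across the 24 libraries, log2 levels of the 8 members other than Trp53 and Cdkn1a had Pearson correlations from 0.856 to 0.986 in their 28 pairs. Cdkn1a had 0.423 to 0.78 with those 8. These libraries share stages and treatments, so the correlations describe the common peak. The genes most like Mdm2 over the 24 libraries, of 11959 compared, were Susd6 (r = 0.987), Aen (0.985) and Phlda3 (0.982). Those most like Ccng1 were Ctbp2 (0.987), Eda2r (0.986) and Plk2 (0.982), and those most like Cdkn1a were Fbxw9 (0.988), Dyrk3 (0.987) and Rrp9 (0.979).

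With IAA in mES cells, arrest and feedback targets were lower while Trp53 and Mdm2 were not past the threshold. Of the 10 members, 0 rose and 6 fell (Eda2r, Ccng1, Cdkn1a, Trp53inp1, Zmat3 and Aen), where 17.3% of all genes rose and 20.1% fell. The median member changed by -0.21 against -0.01 for all genes.
Eda2r had the deepest fall, from 119, 135 and 153 with Dox to 59.6, 68.7 and 55.7 with IAA (-1.13 ± 0.12, adjusted p = 3.85e-10). Ccng1 fell from 1019, 1046 and 1037 to 646, 644 and 709 (-0.63 ± 0.04, adjusted p = 3.94e-15). Cdkn1a fell from 1052, 1029 and 1052 to 840.2, 829 and 796 (-0.35 ± 0.04, adjusted p = 2.57e-09). In these 3 genes every IAA library lay below every Dox library. Trp53inp1 (-0.22 ± 0.05), Zmat3 (-0.21 ± 0.04) and Aen (-0.20 ± 0.05) fell less, again without overlap.
The p53 gene itself read 2822, 2924 and 2948 with Dox and 2845, 2768 and 2853 with IAA (-0.04 ± 0.03, adjusted p = 0.302), and the groups overlapped. Mdm2 (0.03 ± 0.05), Ckap2 (-0.04 ± 0.04) and Plk2 (0.22 ± 0.17, from values of at most 46.9) were not past the threshold either. The summed pluripotency markers were higher with IAA (61516 to 63273) than with Dox (53709 to 55452), although Sox2 had a lower mean (5713 against 6015). The formative sum was lower (728 to 797 against 1364 to 1530.5), through Dnmt3b (mean 320 against 1047). Otx2 (184 against 159), Pou3f1 (91.2 against 70.9) and Sall2 (171 against 155) had higher means with IAA, and Fgf5 was at 0. The neuroectoderm sum was higher with IAA (2616 to 2749.9 against 2283 to 2445), although Pax6 was lower (mean 3.61 against 9.67). The blood and endothelium sum was higher too (2123 to 2275 against 1823 to 1959.8), through Pecam1 (2167 against 1818). Kdr had 3.12 against 1.48, Tek (23.5 against 37.4) and Gata1 (12.4 against 17.7) were lower, and Cdh5 and Ptprc were at 0. The fibroblast sum was lower (15.1 to 32.6 against 46.0 to 50.2), mainly through Thy1 (mean 19.0 against 42.1). The part of these lists in the result was not tested. In a joint fit of the 24 libraries, which takes 1 spread for all stages, the calls of Cdkn1a (adjusted p = 0.152) and Trp53inp1 (0.0625) were lost. The authors' deposited table gives adjusted p = 0.244 and 0.148 for them. Over all stages, the authors' own call was down for Eda2r in mES and unchanged for every other member result. That holds even for Zmat3 in EBd2, with a deposited adjusted p of 2.77e-32.

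In EBd2, at the height of the peak, most targets were lower with IAA and Trp53 was not past the threshold. Of the 10 members, 0 rose and 8 fell (all but Trp53 and Trp53inp1), where 13.4% of all genes rose and 16.7% fell. The median member changed by -0.39 against -0.04 for all genes. Without the library that stood apart, Dox 3, 9 members fell.
Zmat3 had the deepest fall, from 3075, 3010.3 and 2643 to 1724, 1559.7 and 1549 (-0.85 ± 0.06, adjusted p = 7.85e-10). Eda2r fell from 1523, 1514 and 1255 to 997, 963 and 850.5 (-0.61 ± 0.07, adjusted p = 1.31e-06). Cdkn1a fell from 3799, 3649 and 2815 to 2333, 2302 and 2193 (-0.58 ± 0.07, adjusted p = 5.04e-06). The groups of all 3 genes were apart, although Dox 3 was nearer to the IAA libraries than Dox 1 and Dox 2 were.
Ckap2 fell from 3149, 3296 and 3005 to 2289.5, 2217 and 2123 (-0.51 ± 0.05, adjusted p = 7.32e-08). Aen fell from 2396, 2318 and 2177 to 1763, 1691 and 1668 (-0.43 ± 0.05, adjusted p = 1.14e-06). Mdm2 fell from 3287, 3192 and 2632 to 2446, 2483 and 2195 (-0.35 ± 0.07, adjusted p = 0.000371). Every IAA library was below every Dox library in these as well.
Plk2 (3115, 2979 and 2298 with Dox, 2269, 2382 and 1970.1 with IAA, -0.33 ± 0.08, adjusted p = 0.00389) and Ccng1 (11676, 11794 and 10642 with Dox, 10551, 10718 and 9324 with IAA, -0.16 ± 0.05, adjusted p = 0.0225) fell with overlapping groups. The Trp53 values were 3929.9, 3817 and 3707 with Dox and 4377, 4049 and 3955 with IAA (0.11 ± 0.05, adjusted p = 0.0755), every IAA library above every Dox library. Trp53 was past the threshold with TMM scaling (0.15, adjusted p = 0.0155), with DESeq2 (0.0375) and with edgeR (0.0157). Trp53inp1 had -0.07 ± 0.06 (adjusted p = 0.421), and without Dox 3 it had -0.15 (0.00208).
Formative markers were higher with IAA in EBd2 (32657 to 34562 against 24599.8 to 26381) and so were neuroectoderm markers (2282 to 2321 against 1160.4 to 1202), beside the mitochondrial share given above. Blood and endothelium markers were lower with IAA in sum (476 to 529.5 against 672 to 932). So were fibroblast markers (107 to 118 against 164 to 214) and primitive streak markers (65.3 to 75.6 against 96.2 to 109.8), the latter sum being mostly Eomes (mean 53.7 against 69.0). In these lists Ptprc (2.22 against 2.02), Twist2 (0.889 against 0.630) and Gsc (2.53 against 1.15), all at low levels, had higher means with IAA. The primitive endoderm sum was higher (210.2 to 228 against 186 to 194), through Gata4 (mean 119 against 90.0) and Dab2 (79.8 against 73.4). Gata6 (3.85 against 8.10), Sox17 (6.88 against 8.14) and Pdgfra (10.2 against 11.8) had lower means, and the part of these lists was not tested. The Ccng1 call was lost with TMM scaling (adjusted p = 0.0578), edgeR (0.0642), DESeq2 (0.0794), the joint fit (0.369) and without Dox 1 (0.105), Dox 2 (0.122) or IAA 3 (0.21). That of Plk2 was lost with DESeq2 (0.11), the joint fit (0.229) and without IAA 3 (0.0565). The authors' deposited adjusted p in EBd2 was 0.514 for Ccng1 and 0.349 for Plk2.

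In EBd3, past the peak, the arrest gene Cdkn1a was the one member to change with IAA. Of the 10 members, 0 rose and 1, Cdkn1a, fell (4.22% of all genes rose and 6.32% fell). The median member changed by -0.07 against -0.01 for all genes. Cdkn1a read 359, 541 and 599 with Dox and 312, 215 and 525 with IAA (-0.57 ± 0.18, adjusted p = 0.0448), with overlapping groups. Its call was lost with a smaller constant under the log (adjusted p = 0.0876), with DESeq2 (0.544), and without Dox 2 (0.237), Dox 3 (0.266), IAA 1 (0.252) or IAA 2 (0.341, value -0.27). The authors' deposited adjusted p for Cdkn1a in EBd3 was 0.136.
Eda2r read 318, 375 and 431 with Dox and 263, 263 and 395 with IAA (-0.30 ± 0.12, adjusted p = 0.107). Without IAA 3, which held the highest value of its group for 9 members, Eda2r (-0.50, adjusted p = 0.000813), Aen (-0.24, 0.0126) and Mdm2 (-0.19, 0.0447) were past the threshold and lower. Without Dox 1, Zmat3 was past it too (-0.21, 0.048). The values of Ccng1 (0.00 ± 0.11), Plk2 (-0.05 ± 0.20), Ckap2 (-0.05 ± 0.07) and Trp53inp1 (-0.02 ± 0.08) lay near 0, and Trp53 had 0.09 ± 0.05. The neuroectoderm sum was higher with IAA (2709 to 2926 against 2337 to 2426), mainly through Tubb3 (mean 1115 against 748). Nes (1393 against 1328) and Pax6 (251.5 against 249.6) differed little and Sox1 was lower (58.1 against 67.7). The part of these markers was not tested.

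In EBd4 the gene of p53 itself was lower with IAA, and 2 of its targets were higher. Trp53 fell and was the one member to do so (5.57% of all genes fell), and Ckap2 and Trp53inp1 rose (4.69% of all genes rose). The median member changed by 0.15 against -0.01 for all genes.
Trp53 fell from 2829, 2749.9 and 2527 with Dox to 1944, 1953 and 2132 with IAA (-0.43 ± 0.05, adjusted p = 0.000315), without overlap. Trp53inp1 rose from 1624, 1637 and 1776 to 2329, 2024 and 1960.1 (0.32 ± 0.06, adjusted p = 0.00481). Ckap2 rose from 1061, 1136 and 1098 to 1262, 1282 and 1285 (0.22 ± 0.05, adjusted p = 0.0148). The groups of both were apart as well.
Ccng1 (1354, 1105 and 1273 with Dox, 1794, 1508 and 1321 with IAA, 0.30 ± 0.09, adjusted p = 0.0524) was past the threshold without IAA 3 (0.0093) and with TMM scaling (0.0461), DESeq2 (0.0154) or edgeR (0.036). Eda2r read 144, 138 and 151 with Dox and 259.7, 162 and 168 with IAA (0.41 ± 0.15, adjusted p = 0.103), with 1 IAA library well above the rest, and passed in the joint fit (0.0472). Cdkn1a was low in both treatments (119.7, 106 and 138 with Dox, 122, 125 and 138 with IAA, 0.09 ± 0.13), and Mdm2 (0.18 ± 0.07), Zmat3 (0.12 ± 0.06), Aen (-0.09 ± 0.06) and Plk2 (-0.06 ± 0.17) were not past the threshold.
The summed primitive streak markers ran from 1306 to 3204 in EBd4 Dox and were 116, 545 and 2324 in IAA 1, 2 and 3. The pluripotency sum (10527 to 11066 against 11675 to 12542) and the formative sum (20335 to 21065 against 21313 to 22744) were lower with IAA. Pou5f1 (mean 4853 against 5921.5) and Nanog (3817 against 4788) were lower. Sox2 (1087 against 719), Zfp42, Klf4, Esrrb, Tfcp2l1 and Tbx3 had higher means. Dnmt3b (14759 against 16269), Fgf5 (739 against 1173) and Sall2 (1577 against 1610) had lower means. Those of Otx2 (2563 against 2259) and Pou3f1 (952 against 932) were higher. The blood and endothelium sum was higher (84.6 to 126 against 72.6 to 83.1), through Pecam1 (mean 84.6 against 48.2). Kdr (13.0 against 16.0), Cdh5 (2.13 against 4.21), Tek (4.25 against 5.05) and Gata1 (2.39 against 3.36) had lower means. Ptprc was at 0 in both treatments, and the part of these lists was not tested. The calls of Ckap2 and Trp53inp1 were lost without Dox 1 (adjusted p = 0.0847 and 0.0568), that of Trp53inp1 without Dox 2 (0.0547) and that of Ckap2 without IAA 2 (0.0735), whereas Trp53 passed when each of the 6 libraries was left out.

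**Figure D3:**
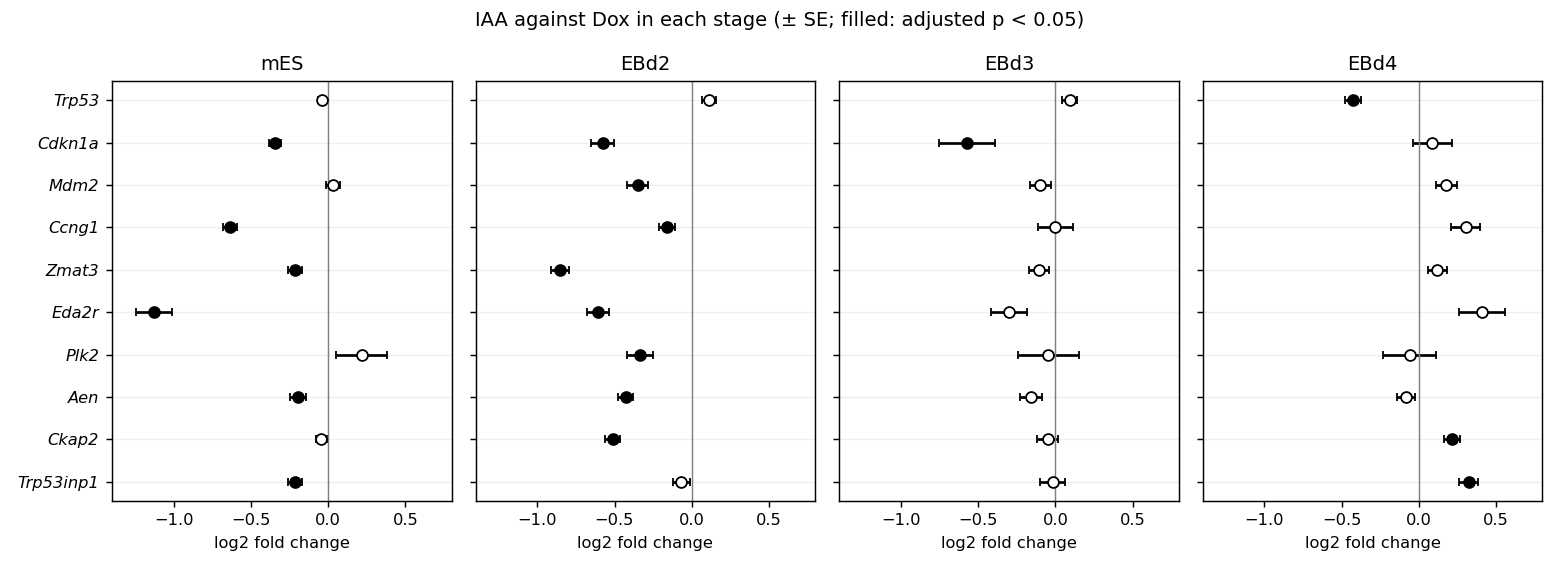
Log2 fold changes of IAA over Dox (points) with SE (bars) for the 10 genes in each stage; filled points have an adjusted p below 0.05. The filled points number 6, 8, 1 and 3 in mES, EBd2, EBd3 and EBd4, all below 0 in the first 3 stages, and in EBd4 Trp53 is below 0 while Ckap2 and Trp53inp1 are above it.

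Whether the IAA effect itself differed between stages was tested in 1 fit of all 24 libraries. For 8 of the 10 members it differed over the 4 stages, where 28.2% of all genes did. Cdkn1a (adjusted p = 0.0987) and Plk2 (0.451) were not past the threshold, and Cdkn1a passed without EBd3 Dox 1 (0.0225) or EBd3 IAA 3 (0.000902). Relative to mES, 3 members had a lower effect in EBd2, Zmat3 (-0.64 ± 0.09, adjusted p = 5.73e-06), Ckap2 (-0.47 ± 0.09, adjusted p = 0.000234) and Mdm2 (-0.38 ± 0.11, adjusted p = 0.00974), and 0 a higher one (6.61% and 9.73% of all genes). For Zmat3 this means that the rise from mES to EBd2 was 2.44-fold with IAA and 3.79-fold with Dox, as ratios of group means. For Ckap2 the ratios were 1.83 and 2.53, and for Mdm2 3.93 and 5.13. Plk2 rose from 44.2 ± 3.19 to 2207 ± 213 with IAA and from 37.9 ± 3.42 to 2797 ± 438 with Dox, and the difference was not past the threshold (-0.55 ± 0.28, adjusted p = 0.203).
In EBd3 the effect was higher than in mES for Ccng1 (0.64 ± 0.17, adjusted p = 0.0104) and Eda2r (0.83 ± 0.20, adjusted p = 0.00481), the genes with the deepest falls in mES (7.15% of all genes were higher and 4.52% lower). In EBd4 it was higher for 5 members, Eda2r (1.54 ± 0.20, adjusted p = 1.02e-06), Ccng1 (0.94 ± 0.17, adjusted p = 0.000132), Trp53inp1 (0.54 ± 0.12, adjusted p = 0.00176), Zmat3 (0.33 ± 0.09, adjusted p = 0.0114) and Ckap2 (0.26 ± 0.09, adjusted p = 0.0395), and lower for Trp53 (-0.39 ± 0.07, adjusted p = 0.000102), where 9.68% of all genes were higher and 7.08% lower. The EBd3 difference of Ccng1 was lost without EBd3 Dox 1 (0.057) or EBd3 IAA 3 (0.0516). The EBd4 difference of Ckap2 was lost when any 1 of 8 libraries was left out (mES Dox 1, Dox 3, IAA 2 and IAA 3, and EBd4 Dox 1, Dox 3, IAA 2 and IAA 3, with adjusted p from 0.058 to 0.1) and without the filter on low values (0.0857). These 3 contrasts share the mES libraries.

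Other genes of the pathway were described by lists, with counts and medians, beside medians over all genes of 0.07 for the step from mES to EBd2 and, with IAA, -0.01 in mES, -0.04 in EBd2, -0.01 in EBd3 and -0.01 in EBd4. Their counts stand beside the shares of all genes given above, 35.0% higher and 29.1% lower in that step. With IAA these shares were 17.3% and 20.1% in mES and 13.4% and 16.7% in EBd2. On day 3 they were 4.22% and 6.32%, and on day 4 4.69% and 5.57%. Among 10 p53 targets in cell death, 9 rose and 0 fell from mES to EBd2 in Dox (median 2.34), among them Pmaip1 (3.42 ± 0.05) and Bbc3 (3.26 ± 0.10), the BH3-only genes of Noxa and Puma. Fas, a death receptor, was at 0 in the 3 mES Dox libraries and read 9.45 to 10.9 in EBd2, at least 3.63-fold higher than a floor of 3 counts per library. With Fas at that bound the list's median is 1.85. With IAA, 2 of 9 tested rose and 6 fell in mES (median -0.25), including Bbc3 (-0.93 ± 0.11, adjusted p = 1.32e-08), Bax (-0.29 ± 0.04, adjusted p = 1.18e-07) and Ei24 (-0.25 ± 0.03, adjusted p = 1.47e-07). In EBd2, 0 of 10 rose and 3 fell (median -0.19), namely Bax (-0.46 ± 0.06, adjusted p = 6.28e-06), Tnfrsf10b (-0.25 ± 0.06) and Perp (-0.31 ± 0.10). In EBd3 2 fell (Bbc3, -0.44 ± 0.09, and Pmaip1, -0.18 ± 0.04) and in EBd4 2 (Bbc3, -0.32 ± 0.09, and Pidd1, -0.32 ± 0.10), with 0 rising in either.
The 17 targets in repair, metabolism and growth did not move one way. From mES to EBd2 in Dox, 10 rose and 6 fell (median 0.84). With IAA, 4 rose and 4 fell in mES (median 0.06), and 7 rose and 6 fell in EBd2 (0.01). Day 3 had 3 higher and 1 lower (0.01), and day 4 had 0 in either direction (0.05). In mES Psrc1, a spindle protein gene, fell from 808 ± 15.1 to 402 ± 7.40 (adjusted p = 8.48e-20), and it fell in EBd2 (-0.39 ± 0.05, adjusted p = 1.36e-06) and EBd3 (-0.30 ± 0.07, adjusted p = 0.00642) as well. Also in mES, Ddit4, an inhibitor of mTORC1, rose (1.59 ± 0.08, adjusted p = 4.18e-18), as did Tigar, a regulator of glycolysis (0.28 ± 0.03, adjusted p = 1.91e-08). In EBd2 the growth arrest gene Gadd45a rose (0.89 ± 0.10, adjusted p = 1.33e-06) and the antiproliferative gene Btg2 fell (-0.54 ± 0.07, adjusted p = 3.61e-06). In EBd3 the cell-cycle regulator gene Sertad1 (0.55 ± 0.14, adjusted p = 0.00906) and Rrm2b, a subunit of ribonucleotide reductase (0.41 ± 0.13, adjusted p = 0.0433), rose.
Of 17 regulators of p53, 6 rose and 8 fell from mES to EBd2 in Dox (median -0.07). With IAA, 5 rose and 2 fell in mES (median 0.01), and 6 rose and 3 fell in EBd2 (0.09). Day 3 had 3 higher and 1 lower (median 0.00), and day 4 had 2 higher and 0 lower (0.07). Sirt1, the gene of a deacetylase that acts on p53, rose in mES (0.46 ± 0.04, adjusted p = 1.51e-11), EBd2 (0.39 ± 0.06, adjusted p = 9.11e-05), EBd3 (0.30 ± 0.06, adjusted p = 0.000616) and EBd4 (0.28 ± 0.06, adjusted p = 0.00537). The acetyltransferase gene Kat5 fell in mES (-0.45 ± 0.06, adjusted p = 7.77e-08), EBd2 (-0.75 ± 0.07, adjusted p = 1.64e-07) and EBd3 (-0.41 ± 0.08, adjusted p = 0.00129), and had -0.18 ± 0.08, adjusted p = 0.153 in EBd4. The checkpoint kinase gene Chek2 rose in mES (0.42 ± 0.05, adjusted p = 2.86e-09) and EBd2 (0.54 ± 0.07, adjusted p = 2.15e-06). Mdm4, the partner of Mdm2 that masks p53, fell in EBd2 (-0.33 ± 0.04, adjusted p = 9.34e-06) and rose in EBd3 (0.21 ± 0.04, adjusted p = 0.00142) and EBd4 (0.23 ± 0.05, adjusted p = 0.0072). Of the p53 relatives, Trp73 rose from 12.6 ± 0.428 in mES Dox to 515 ± 77.1 in EBd2 Dox and fell with IAA in EBd2 (-0.74 ± 0.09, adjusted p = 3.01e-06), and Trp63 did not pass the filter on low values.
Genes of mitosis and E2F control, a group lowered through p21 and the DREAM repressor complex, were mixed. From mES to EBd2 in Dox, while Cdkn1a rose, 5 of 18 rose and 12 fell (median -0.30). With IAA, 6 rose and 3 fell in mES (median 0.04), and 5 rose and 2 fell in EBd2 (0.00). Day 3 had 1 higher and 3 lower (-0.02), and day 4 had 5 higher and 0 lower (0.10). E2f1 rose in mES (0.32 ± 0.04, adjusted p = 3.86e-09), EBd2 (0.55 ± 0.06, adjusted p = 2.66e-07) and EBd3 (0.42 ± 0.08, adjusted p = 0.00108), and in mES Top2a, the DNA topoisomerase of dividing cells (0.28 ± 0.02, adjusted p = 9.37e-16), and the replication helicase gene Mcm5 (0.20 ± 0.02, adjusted p = 6.77e-10) rose too. The mitotic kinase genes Aurkb (0.29 ± 0.05) and Aurka (0.25 ± 0.05) rose in EBd2. The mitotic checkpoint genes Cdc20 (-0.16 ± 0.04) and Bub1b (-0.15 ± 0.04) fell in EBd3. In EBd4 the transcription factor gene Mybl2 (0.53 ± 0.11, adjusted p = 0.00641), the phosphatase gene Cdc25c (0.30 ± 0.08) and the cyclin gene Ccnb1 (0.14 ± 0.04) rose.

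**Figure D4:**
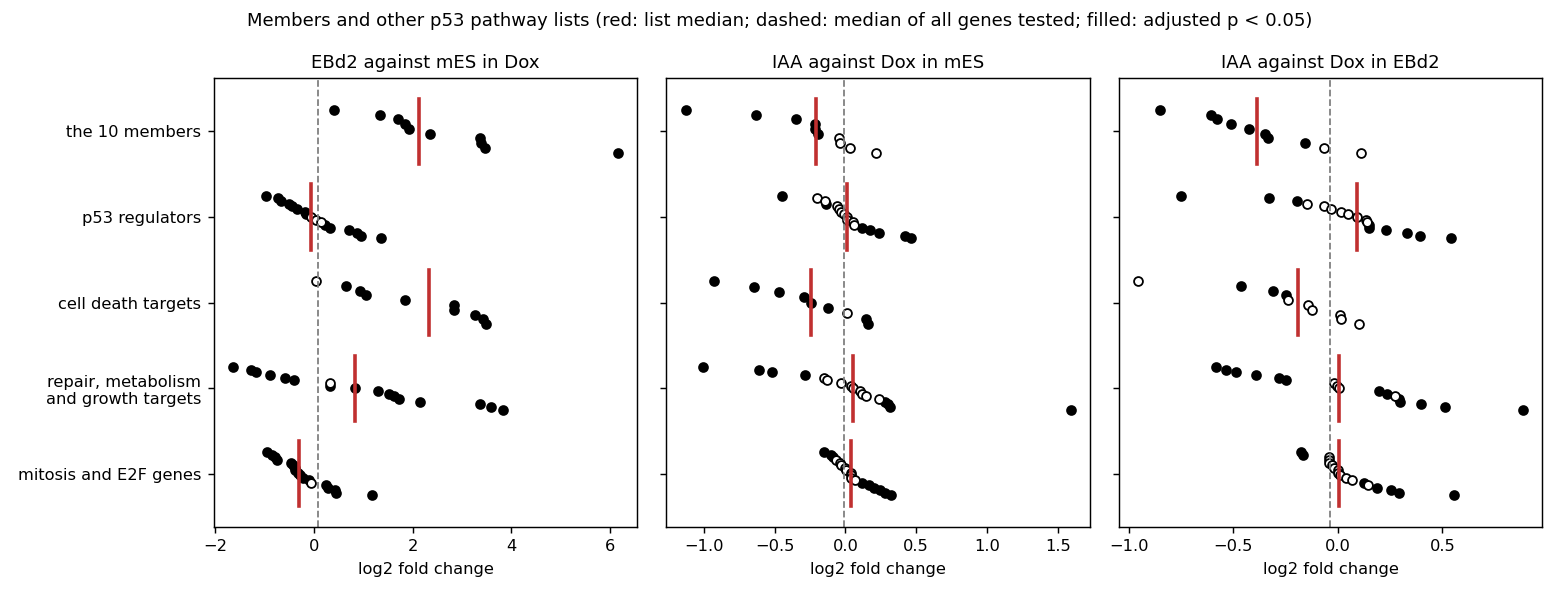
Log2 fold changes of the 10 members and of 4 other lists (points; filled with an adjusted p below 0.05) in 3 comparisons, with the list medians in red and the median of all genes tested as a dashed line. From mES to EBd2 the members and the cell death targets lie mostly above the dashed line (medians 2.14 and 2.34), and with IAA in EBd2 mostly below it (-0.39 and -0.19). From mES to EBd2 the mitosis and E2F genes lie mostly below the line (median -0.30).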

How the data were processed

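Per the submitters' processing notes, STAR 2.5.3a, featureCounts 1.5.2, DESeq2 and the build mm10 were used, with no roles stated. Strandedness and annotation version are not given in the sources used here. The deposited signal values are counts that the authors divided by 1 size factor per library: all positive values (100%) were whole multiples (within 0.0001) of the library's smallest, and reads were recovered from them. The deposited mean spans all 24 libraries, so stages share a scale. The deposited log2 fold changes, p-values and Wald score were taken to be from DESeq2 by their column names, which do not name the program.

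The limma 3.58.1 trend fit used log2(value + 1) and kept a gene if its mean was 1 or more; p-values were adjusted by Benjamini-Hochberg over every gene kept. IAA against Dox was fitted within each stage, successive stages in the 12 Dox libraries, and all 24 libraries for differences of the IAA effect (moderated F test and contrasts with mES). Alternatives were DESeq2 1.42.0 and edgeR 4.0.16 (quasi-likelihood) on recovered reads, TMM scaling, a constant of 0.25, no filter, a joint fit, a replicate block and each library left out. Scripts were tested on simulated data. Positions and exonic lengths are from GENCODE M21, which held 35652 of the 35742 genes.

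The members and lists were chosen with earlier results of these data known. All 10 members are reported in every comparison, and of each list up to 3 genes per stage, those past the threshold with the smallest adjusted p with IAA. For the step from mES to EBd2, Fas, Pmaip1, Bbc3 and Trp73 were named after their values were seen, as were Sirt1 in EBd2 and Kat5 in EBd4.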

Additional observations from a re-analysis of the deposited data

Results flagged for a closer look

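The IAA effect differed between the 4 stages, by the F test of limma over all 24 libraries, for 8 of the 10 members. The adjusted p was 9.78e-09 for Zmat3, 4.6e-07 for Trp53, 1.47e-06 for Ckap2 and 4.55e-06 for Eda2r. It was 0.000579 for Ccng1, 0.00154 for Mdm2, 0.00618 for Trp53inp1 and 0.0198 for Aen. The effect sizes in mES, EBd2, EBd3 and EBd4 were -0.21, -0.85, -0.11 and 0.12 for Zmat3, and -0.04, 0.11, 0.09 and -0.43 for Trp53. Eda2r went from -1.13 in mES to 0.41 in EBd4 and Ccng1 from -0.63 to 0.30. The Aen difference was lost without EBd2 Dox 1 (adjusted p = 0.0744), EBd2 Dox 2 (0.0522), EBd2 IAA 2 (0.0501) or EBd2 IAA 3 (0.061).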

How the results depend on the processing

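Of 2260 recomputed single-gene results, 103 changed sign or side of the threshold, and none of them belonged to the steps between stages in Dox. In EBd2 with IAA, 1 member (Trp53) rather than 0 was higher with TMM scaling, DESeq2 or edgeR. In EBd3 the genes past the threshold were 1295 with DESeq2 against 2245, and 1202 to 2613 with 1 library left out. The members lower in EBd3 were 0 with a constant of 0.25 or DESeq2, 2 without the filter (Eda2r added) and 0 to 4 with 1 library left out. In EBd4 the genes past the threshold were 3425 in the joint fit against 2173, and 776 to 2039 with 1 library left out, while the members higher were 0 to 3. Relative to mES, 1 member (Ccng1) rather than 0 had a higher effect in EBd2 with TMM scaling or edgeR, and 0 to 2 with 1 library left out. The number with a higher effect in EBd3 was 1 to 2 with 1 library left out. The cause of these changes was not tested.

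Signs changed for values that were not past the threshold. In EBd3, Plk2 was 0.000902 with edgeR and Trp53inp1 0.00428 with DESeq2 and 0.00414 with edgeR. The Ckap2 effect in EBd3 relative to mES was 0.00785 with TMM scaling, 0.00583 with DESeq2 and 0.0208 with edgeR. With 1 library left out, EBd3 values ran from -0.20 to 0.18 for Ccng1, -0.37 to 0.24 for Plk2, -0.16 to 0.054 for Ckap2 and -0.16 to 0.11 for Trp53inp1. EBd4 values ran from -0.00598 to 0.19 for Cdkn1a and -0.18 to 0.073 for Plk2. Differences between EBd3 and mES ran from -0.56 to 0.079 for Cdkn1a (-0.22 with all libraries, positive without EBd3 IAA 2), -0.59 to 0.026 for Plk2 (-0.26, likewise), -0.045 to 0.099 for Aen and -0.11 to 0.10 for Ckap2.

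Deviations of same-numbered Dox and IAA libraries from their group means had correlations from -0.18 to 0.094. Different-numbered libraries of a stage had -0.112 to 0.194. With 3 libraries in a group, these values cannot decide whether the numbers pair them. The main fits do not pair libraries. With the replicate block, 1365 genes rather than 2173 passed in EBd4. Under that block the members higher in EBd2 were 1, those lower in EBd3 were 2, and those with a higher effect in EBd2 than in mES were 2. Depth limits Plk2 in mES and EBd4, where it rested on as few as 40 and 44 reads in a library. Residual spread in each stage rests on 6 libraries.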
